A study of Mus musculus with 12 samples.

Results

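The genes of the circadian clock were examined in mouse microglia, the resident macrophages of the brain, across 4 ways of preparing the cells. The 9 genes, Arntl, Per1, Per2, Nr1d1, Nr1d2, Dbp, Tef, Bhlhe40 and Bhlhe41, were chosen by symbol from the 31053 genes that the count matrices list. All 9 were found there. Each of the 12 libraries came from the whole brain of 1 male C57BL/6J mouse at postnatal day 90, and held live cells sorted for CD45 and CD11b. Brains were broken up by cold mechanical Dounce homogenization (DNC) or by warm enzymatic digestion (ENZ), without inhibitors (NONE) or with inhibitors of transcription and translation (INHIB). This gave 4 preparations, DNC-NONE and DNC-INHIB on the Dounce side and ENZ-NONE and ENZ-INHIB on the digested side, with n = 3 mice each, in 2 batches of 6 libraries that each hold all 4 preparations. The mice carried no engineered allele. They were kept on a light and dark cycle, and the time of day at which each brain was taken is not given in the sources used here.

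The clock is a loop of transcription and repression that runs in most cells with a period of about a day. Bmal1, the protein made from Arntl, pairs with Clock and switches on the Per and Cry genes at DNA elements called E-boxes, and the Per and Cry proteins then repress that pair. Nr1d1 and Nr1d2 (Rev-erb alpha and beta) repress Arntl in a second loop, Dbp and Tef carry the rhythm to other genes through D-box elements, and Bhlhe40 and Bhlhe41 (Dec1 and Dec2) compete with Bmal1 and Clock at E-boxes. Per1 can also be induced within minutes by stimuli that act through cyclic AMP, and Bhlhe41 is known as a repressor in microglia and other resident macrophages.

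Of 28426 deposited cells, 18830 passed filters of 500 or more genes, 1000 or more UMIs and a mitochondrial share of 10% or less, with 855 to 2185 cells per library. A UMI (unique molecular identifier) stands for 1 captured transcript. The kept cells of a library summed to 1062871 to 3233159 UMIs, with DNC-NONE replicate 2 the smallest. The microglial markers Tmem119 and P2ry12 were found in all 12 libraries, Tmem119 at 3408 to 4382 and P2ry12 at 6133 to 8397 CPM (UMIs per 1000000 UMIs of the library, after TMM scaling for library composition). Markers of other cells summed to less than Tmem119 alone: the border macrophage list summed to 218 to 514, the monocyte list to 28.0 to 267, the astrocyte list to 155 to 244 and the neuron list to at most 17.6. The neutrophil list ranged from 0 in ENZ-INHIB replicate 3 to 2078 in DNC-NONE replicate 3. Of 18594 distinct barcodes, 236 occurred in 2 libraries and none in more. In sums over a library, fewer cells of a type and less RNA per cell cannot be told apart.

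3 kinds of element by which clock proteins find their targets were looked for in the promoters of the members: the E-box CACGTG and its variant CACGTT, the D-box TTATGTAA or TTACGTAA, and the element TAGGTCA or TGGGTCA that Nr1d1, Nr1d2 and the ROR activators share. Promoter windows from RefSeq (GRCm38.p6) run from 250 bases before to 50 bases after an annotated start, and 7 of the 9 genes had at least 1. Both strands were searched. The 4 windows below each hold 1 such element, in capitals, CACGTG in Bhlhe41, Per1 and Tef and TAGGTCA in Arntl. The Nr1d1 window and a further Tef window also hold an element and are not shown.
Bhlhe41, chr6:145865371-145865670, minus strand: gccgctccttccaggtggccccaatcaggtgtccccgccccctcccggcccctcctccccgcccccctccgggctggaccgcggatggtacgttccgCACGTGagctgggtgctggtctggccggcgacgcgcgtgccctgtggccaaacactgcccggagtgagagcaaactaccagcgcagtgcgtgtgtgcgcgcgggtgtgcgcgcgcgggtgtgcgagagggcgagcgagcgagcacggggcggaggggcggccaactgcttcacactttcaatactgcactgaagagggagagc
Per1, chr11:69098699-69098998, plus strand: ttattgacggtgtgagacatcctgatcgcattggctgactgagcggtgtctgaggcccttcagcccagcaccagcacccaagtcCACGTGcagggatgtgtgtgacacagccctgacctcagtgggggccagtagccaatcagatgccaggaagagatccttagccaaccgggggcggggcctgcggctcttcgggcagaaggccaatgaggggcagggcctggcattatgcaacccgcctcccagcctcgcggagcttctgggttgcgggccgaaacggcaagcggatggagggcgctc
Tef, chr15:81811164-81811463, plus strand: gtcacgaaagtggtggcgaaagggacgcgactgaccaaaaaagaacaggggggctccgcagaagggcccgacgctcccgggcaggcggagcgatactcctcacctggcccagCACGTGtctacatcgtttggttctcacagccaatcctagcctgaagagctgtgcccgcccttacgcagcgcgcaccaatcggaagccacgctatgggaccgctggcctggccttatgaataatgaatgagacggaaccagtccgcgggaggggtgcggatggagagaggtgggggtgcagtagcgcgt
Arntl, chr7:113207261-113207560, plus strand: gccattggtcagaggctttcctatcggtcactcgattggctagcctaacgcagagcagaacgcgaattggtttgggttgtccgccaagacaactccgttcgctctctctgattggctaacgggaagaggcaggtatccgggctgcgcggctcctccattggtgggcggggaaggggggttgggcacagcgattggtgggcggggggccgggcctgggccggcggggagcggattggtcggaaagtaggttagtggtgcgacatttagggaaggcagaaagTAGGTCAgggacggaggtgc

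In Bhlhe41, Per1 and Tef the capitals mark CACGTG, whose first base lay 153, 166 and 138 bases before the start, and a further Tef window held the same letters 127 bases before its own start. In Arntl the capitals mark TAGGTCA, within the 50 bases after the start. Nr1d1 held CACGTT on the reverse strand 28 bases before its start. The Dbp and Nr1d2 windows, a further Per1 window and a further Arntl window held none of these letters. No window of a member held a D-box. Other elements were searched too. TGACG, a part of the cyclic AMP response element TGACGTCA, lay in both Per1 windows and in 20.8% of all windows. AGAACA, a part of the glucocorticoid response element, lay in 1 Tef window and in 19% of all windows. TGACGTCA and the CArG box, another regulatory element, lay in no member window. Of the 32851 promoter windows of this length, 7.15% held CACGTG, 4.68% CACGTT, 2.61% TAGGTCA, 3.98% TGGGTCA, 0.938% TTATGTAA and 0.119% TTACGTAA. A match is a description of the sequence and says nothing of binding in these cells.

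The members lie on 6 chromosomes of GRCm38: Bhlhe41 on chr6:145858243-145865558 (minus), Bhlhe40 on chr6:108660629-108666925 (plus), Arntl on chr7:113207465-113314126 (plus), Dbp on chr7:45705088-45710203 (plus), Per1 on chr11:69095217-69109960 (plus), Nr1d1 on chr11:98767932-98775333 (minus), Tef on chr15:81802421-81826863 (plus), Nr1d2 on chr14:18204054-18239127 (minus) and Per2 on chr1:91415982-91459324 (minus). All are annotated as protein-coding. Nr1d1 overlaps Thra, the thyroid hormone receptor gene on the opposite strand, and Dbp overlaps Sphk2, Tef overlaps Gm17597, Bhlhe40 overlaps 0610040F04Rik, Bhlhe41 overlaps Gm43909 and Arntl overlaps Gm45355 in the same way. Whether the counting kept the strands apart is not stated in the labels, so reads from such partners may not have been told apart.

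The clock genes were detected in every preparation, with Bhlhe41 by far the most counted (16973 UMIs in the 18830 cells) and the others sparse. Totals over the 12 libraries were 961 UMIs for Tef, 856 for Nr1d2, 512 for Dbp, 273 for Arntl, 272 for Per1, 51 for Nr1d1, 41 for Bhlhe40 and 33 for Per2. The counts come from transcript ends, and how fully the transcripts of each gene were captured was not measured, so they do not rank the genes by level. The levels below are TMM-scaled CPM, with preparations given as mean ± SD and n = 3 mice. Of the 9 genes, 6 (Arntl, Per1, Nr1d2, Dbp, Tef and Bhlhe41) passed the filter on low counts and were tested, and Per2, Nr1d1 and Bhlhe40 were not.

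**Figure D1:**
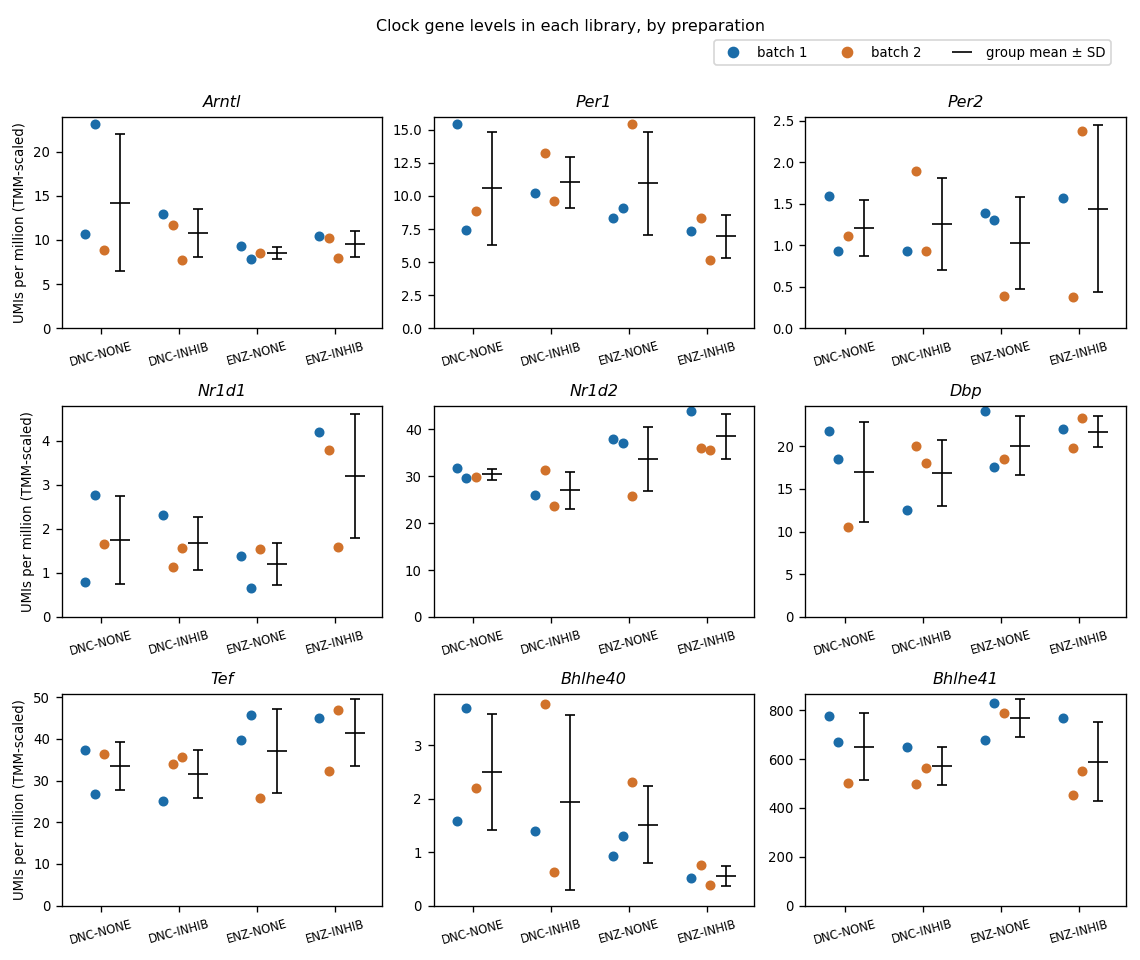
Level of each clock gene (y axis, TMM-scaled CPM, linear and starting at 0) in the 12 libraries, grouped by preparation on the x axis. Points are single mice, blue for batch 1 and orange for batch 2, and the bar beside them is the mean ± SD of the 3 mice. DNC-NONE replicate 2 stands alone in Arntl at 23.1, and for Bhlhe41 the batch 2 libraries other than ENZ-NONE replicate 6 lie at 451 to 565.

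Among the activators, Arntl measured 10.7, 23.1 and 8.84 CPM in DNC-NONE replicates 1 to 3. It measured 13, 11.7 and 7.78 in DNC-INHIB replicates 4 to 6, 9.26, 7.82 and 8.49 in ENZ-NONE replicates 4 to 6, and 10.5, 10.2 and 7.90 in ENZ-INHIB replicates 1 to 3. The value of 23.1, from 25 UMIs in the smallest library, was the only one above 13, and the 4 preparations overlapped apart from it. That library also carried neutrophil markers at 749 CPM, and none of its 25 Arntl UMIs lay in the 12 cells with such a marker. With 12 of 855 cells, none would be likely in any case. It also had the most cells with at least 3 border macrophage genes, at 27. Whether other cell types bear on its Arntl value was not tested. The largest Arntl difference was between ENZ-NONE (8.52 ± 0.72) and DNC-NONE (14.2 ± 7.8), with a log2 fold change of -0.60 (SE 0.33, edgeR adjusted p = 0.674). Without DNC-NONE replicate 2 it was -0.20.

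Per1, the immediate-response member of the Per repressors, measured 15.5, 7.40 and 8.84 CPM in DNC-NONE replicates 1 to 3 and 10.2, 13.2 and 9.64 in DNC-INHIB replicates 4 to 6. It measured 8.33, 9.13 and 15.4 in ENZ-NONE replicates 4 to 6 and 7.34, 8.35 and 5.13 in ENZ-INHIB replicates 1 to 3. ENZ-INHIB held the lowest library and lay wholly below DNC-INHIB, while it overlapped DNC-NONE and, by 1 library each, ENZ-NONE. ENZ-NONE (11.0 ± 3.9) stood above ENZ-INHIB (6.94 ± 1.64) by 0.70 on the log2 scale (SE 0.33, unadjusted p = 0.0459 and adjusted p = 0.940 in edgeR). ENZ-INHIB stood below DNC-NONE by a log2 fold change of -0.71 (SE 0.34, unadjusted p = 0.0492 and adjusted p = 0.477 in edgeR). Within batch 1 ENZ-NONE averaged 8.73 CPM and ENZ-INHIB, a single library, was at 7.34. Within batch 2 they were at 15.4 and 6.74, where ENZ-NONE is a single library. Between ENZ-NONE and DNC-NONE the Per1 difference was -0.01, with a 95% interval of -0.68 to 0.66 and a sign that turned with 1 library left out. Per2, the other Per gene of the set, had 1 to 6 UMIs in each library, and its pooled level was 1.31 CPM in DNC-NONE, 1.25 in DNC-INHIB, 0.931 in ENZ-NONE and 1.41 in ENZ-INHIB, where the 95% Poisson intervals, which cover counting error only, overlapped throughout (0.342 to 2.03 in ENZ-NONE and 0.678 to 2.60 in ENZ-INHIB).

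Nr1d2 (Rev-erb beta) measured 31.7, 29.6 and 29.8 CPM in DNC-NONE replicates 1 to 3 and 26.0, 31.4 and 23.6 in DNC-INHIB replicates 4 to 6. It measured 38.0, 37.2 and 25.8 in ENZ-NONE replicates 4 to 6 and 44.0, 36.1 and 35.5 in ENZ-INHIB replicates 1 to 3. All 3 ENZ-INHIB libraries lay above all 6 Dounce libraries. ENZ-NONE replicates 4 and 5 also lay above them, and ENZ-NONE replicate 6 lay within their range. ENZ-INHIB (38.5 ± 4.8) exceeded DNC-INHIB (27.0 ± 4.0) by 0.51 on the log2 scale (SE 0.16, 95% interval 0.17 to 0.84). This was the smallest p among the tests of members between preparations, at 0.0051 unadjusted, and it did not pass in edgeR over the 9884 genes (adjusted p = 0.316). The same direction was seen within batch 1 (44.0 against 26.0, 1 library each) and within batch 2 (35.8 against 27.5, 2 libraries each). Nr1d1 (Rev-erb alpha) had 1 to 10 UMIs per library and was highest in ENZ-INHIB, at 4.19, 3.80 and 1.58 CPM against 0.652 to 2.78 in the other 9 libraries. The low value, from ENZ-INHIB replicate 3, lay inside the range of the others. Fitted without the filter on low counts, Nr1d1 differed between ENZ-NONE and ENZ-INHIB by -1.28 (SE 0.71, edgeR adjusted p = 0.954). Thra, which overlaps Nr1d1 on the other strand, was at 6.75 ± 3.11, 7.94 ± 0.46, 6.28 ± 1.42 and 8.42 ± 1.49 CPM in DNC-NONE, in DNC-INHIB, in ENZ-NONE and in ENZ-INHIB.

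No difference of the D-box activators Dbp and Tef between preparations passed the test. Dbp measured 21.8, 18.5 and 10.5 CPM in DNC-NONE replicates 1 to 3, 12.5, 20.0 and 18.0 in DNC-INHIB replicates 4 to 6, 24.1, 17.6 and 18.5 in ENZ-NONE replicates 4 to 6, and 22.0, 19.7 and 23.3 in ENZ-INHIB replicates 1 to 3. The lowest values, 10.5 and 12.5, were both from Dounce libraries, and all preparations overlapped. The largest Dbp difference, ENZ-INHIB against DNC-INHIB, was 0.34 (SE 0.22, edgeR adjusted p = 0.727). Tef measured 37.3, 26.8 and 36.5 CPM in DNC-NONE replicates 1 to 3, 25.1, 34.0 and 35.8 in DNC-INHIB replicates 4 to 6, 39.8, 45.6 and 25.8 in ENZ-NONE replicates 4 to 6, and 45.1, 32.3 and 47.0 in ENZ-INHIB replicates 1 to 3. The 4 values above 38 were all from digested brains, and each preparation also had a library at or below 33 CPM. The largest Tef difference was again ENZ-INHIB against DNC-INHIB, at 0.36 (SE 0.19, edgeR adjusted p = 0.648).

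Of the E-box repressors, Bhlhe41 was measured with the most precision, from 725 to 2049 UMIs per library. It measured 776, 671 and 504 CPM in DNC-NONE replicates 1 to 3, 651, 497 and 565 in DNC-INHIB replicates 4 to 6, 680, 830 and 790 in ENZ-NONE replicates 4 to 6, and 768, 451 and 551 in ENZ-INHIB replicates 1 to 3. The ENZ-NONE libraries all lay above DNC-INHIB and overlapped the other preparations. ENZ-NONE (767 ± 77) exceeded DNC-INHIB (571 ± 77) by 0.42 on the log2 scale (SE 0.17, 95% interval 0.07 to 0.78, edgeR adjusted p = 0.402) and ENZ-INHIB (590 ± 162) by 0.38 (SE 0.17, 95% interval 0.03 to 0.73, edgeR adjusted p = 0.940). Without the filter on low counts the adjusted p in edgeR was 0.0023 and 0.0189, with differences of 0.42 and 0.37 that stayed under the fold threshold. That fit gave almost no weight to the spread of a single gene between mice, so these adjusted p do not measure it. Within batch 1 the difference from ENZ-INHIB did not hold, with ENZ-NONE at a mean of 755 and ENZ-INHIB, a single library, at 768. Within batch 2 they were at 790 and 501, where ENZ-NONE is a single library. Bhlhe40 had 1 to 10 UMIs per library and a pooled level of 2.24 CPM in DNC-NONE, 1.88 in DNC-INHIB, 1.55 in ENZ-NONE and 0.565 in ENZ-INHIB. ENZ-INHIB had 4 UMIs in all (95% Poisson interval 0.154 to 1.45 CPM), which overlapped the intervals of the other preparations (1.16 to 3.91 in DNC-NONE). Fitted without the filter on low counts, its difference between ENZ-INHIB and DNC-NONE was -1.90 (SE 0.97, unadjusted p = 0.0285 and adjusted p = 0.449 in edgeR).

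None of the 6 tested members was called in any comparison between preparations. A gene was called at an edgeR adjusted p under 0.05 and a log2 fold change beyond 0.58 in either direction. Of the 9884 genes tested, 0.617% were called between ENZ-NONE and DNC-NONE, 0.789% between ENZ-NONE and DNC-INHIB, 0.374% between ENZ-NONE and ENZ-INHIB, 0.152% between ENZ-INHIB and DNC-INHIB, 0.101% between ENZ-INHIB and DNC-NONE, and 0% between DNC-NONE and DNC-INHIB, where 467 genes had an unadjusted p under 0.05 and DESeq2 called 1. Calls were thus rare among all genes, and their absence among 6 is no result about the clock. Over the 36 tests of members, 5 had an unadjusted p under 0.05 with edgeR and 1 with DESeq2, and neither tool called any. Of all genes, 4.72% to 10.4% had an unadjusted p under 0.05 with edgeR in a comparison. These 6 comparisons share libraries.

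The precision of these tests differed between the genes. Standard errors of the log2 fold changes ran from 0.16 to 0.34 over the members. In ENZ-NONE against DNC-NONE, the 95% intervals were -0.12 to 0.59 for Bhlhe41, -0.25 to 0.48 for Nr1d2, -0.38 to 0.51 for Tef, -0.29 to 0.74 for Dbp, -0.68 to 0.66 for Per1 and -1.29 to 0.09 for Arntl. The intervals of Nr1d2 and Tef lay within the fold threshold, and those of the other 4 reached past it. In the same comparison the median over the 6 genes was 0.09 and that over all genes tested was 0.00. The early-response gene Fos, for scale, measured 884 ± 833 CPM in ENZ-NONE and 13.5 ± 20.3 in DNC-NONE. The inhibitor effects under digestion and under Dounce were compared as an interaction. It was the log2 difference of ENZ-NONE from ENZ-INHIB, minus that of DNC-NONE from DNC-INHIB. For it 0.172% of genes were called. Over the members it ranged from -0.44 for Arntl to 0.66 for Per1, and none was called (edgeR adjusted p = 1.00 for each, with none at an unadjusted p under 0.05).

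**Figure D2:**
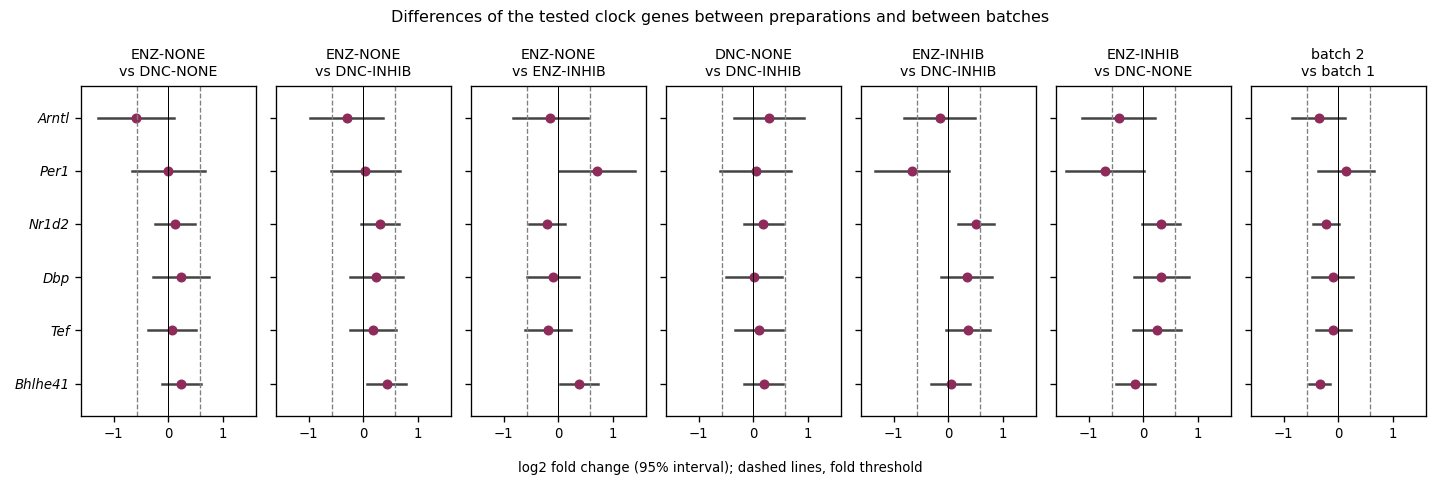
Log2 fold change (x axis) of the 6 tested clock genes (y axis), with 1 panel for each pair of preparations and 1 for the batches. Points are edgeR estimates, lines are 95% intervals and dashed lines mark the fold threshold of 0.58. No gene passed both the fold threshold and the adjusted p, and the interval of Bhlhe41 between batches, -0.53 to -0.14, lay below 0.

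Between batches, Bhlhe41 had the smallest p of the tested members. It measured 651 to 830 CPM in the 6 libraries of batch 1 (729 ± 72, n = 6) and 451 to 565 in 5 of the 6 libraries of batch 2, with ENZ-NONE replicate 6 of batch 2 at 790. With the preparations taken into account, batch 2 stood below batch 1 by a log2 fold change of -0.34 (SE 0.09, 95% interval -0.53 to -0.14, unadjusted p = 0.0018 and adjusted p = 0.0588 in edgeR), which missed the threshold and was under the fold asked for a call. Without ENZ-NONE replicate 6 the difference was -0.48 (edgeR adjusted p = 0.0022), still under the fold threshold. Without ENZ-INHIB replicate 1 it was -0.24 (edgeR adjusted p = 0.303). Batch 2 was lower in DNC-NONE (504 against 723), DNC-INHIB (531 against 651) and ENZ-INHIB (501 against 768) and not in ENZ-NONE (790 against 755). In each of these, 1 side was a single library: batch 2 in DNC-NONE and ENZ-NONE, and batch 1 in DNC-INHIB and ENZ-INHIB. Of all genes, 0.253% were called between batches, and 14.1% had an unadjusted p under 0.05. Among the other 5 tested members the batch differences ran from -0.36 for Arntl to 0.15 for Per1, none with an unadjusted p under 0.05. What a batch stands for beyond its number is not given in the labels.

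The spread between mice of the same preparation was described for the 6 tested clock genes, with no test. For each gene, the chi-square of its counts within preparations was divided by its 8 degrees of freedom, so that counting error alone gives a value near 1, and compared with the genes of like mean count (those in the same of 5 equal bins). It was 49.5 for Bhlhe41, 3.47 for Tef, 2.19 for Arntl, 2.01 for Per1, 1.90 for Dbp and 1.55 for Nr1d2. These values stood at the 97.1st, 96.2nd, 88.7th, 85.7th, 82.9th and 65.1st percentiles of their bins, whose medians were 2.58 for Bhlhe41, 1.23 for Tef and Nr1d2 and 1.15 for the other 3. All 6 thus lay above the median gene of like counts. The bin of Bhlhe41 was wide, with means of 190 to 128445 UMIs per library. The chi-square grows with the count, so the biological coefficient of variation, which does not, was also estimated: 0.181 for Per1, 0.175 for Arntl, 0.156 for Bhlhe41, 0.142 for Tef, 0.130 for Dbp and 0.0969 for Nr1d2, against a median of 0.0934 over all genes tested. Among all genes these stood at the 91.1st, 90.3rd, 86.2nd, 82.3rd, 77.1st and 54.1st percentiles. The bin medians were 0.0892 for Bhlhe41, 0.0865 for Tef and Nr1d2 and 0.102 for the other 3. Each preparation held libraries of both batches, so the Bhlhe41 spread includes its batch difference. The mice had no recorded time of death here, so the part of the time of day in the spread was not tested.

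**Figure D3:**
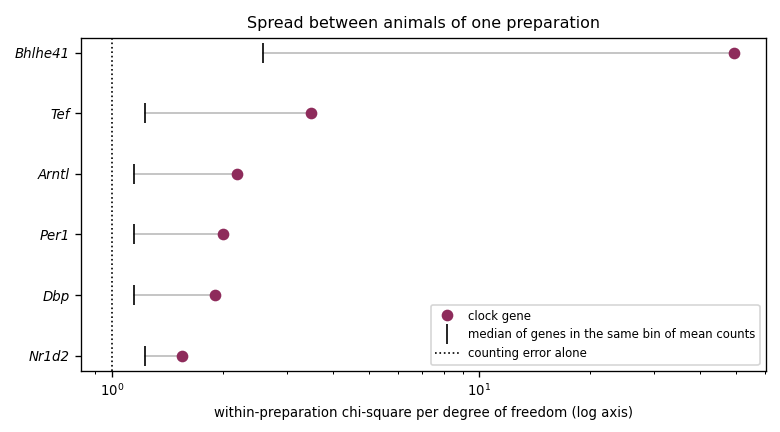
Chi-square per degree of freedom of the counts within preparations (x axis, log scale) for the 6 tested clock genes (y axis). Filled points are the clock genes, vertical ticks are the medians of the genes in the same of 5 bins of mean counts and the dotted line marks counting error alone. Bhlhe41 at 49.5 and Tef at 3.47 stand farthest above their ticks.

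The clock genes did not vary together between mice in a way that passed a test. After each preparation's mean was subtracted from the log2 (CPM + 1) levels, the 15 pairs of the 6 genes gave Pearson's r of -0.56 to 0.59 over the 12 libraries. Tef and Nr1d2 had r = 0.59 (rho = 0.23, exact permutation p = 0.172 and 0.58, adjusted p = 0.829 and 0.941), and r = 0.37 without the 2 libraries farthest from the median in Nr1d2. Tef and Arntl, from opposite arms of the loop, had r = -0.56 (rho = -0.49, exact permutation p = 0.0478 and 0.0772, adjusted p = 0.718 and 0.941). Their r was -0.73 without the 2 libraries farthest from the median in Tef, and -0.71 with batch means also subtracted. The library highest in Arntl, DNC-NONE replicate 2 at 23.1 CPM, stayed in each time, and r without it was not computed. Dbp and Tef, both D-box activators, had r = 0.23 (rho = 0.24, exact permutation p = 0.495 and 0.477, adjusted p = 0.829 and 0.941), and r = 0.31 without the 2 libraries farthest from the median in Dbp. The tests were two-sided, over every arrangement of libraries within preparations.

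The genes whose level over the 12 libraries was most like that of a member were, by Pearson's r of log2 (CPM + 1), Nuak2 (0.97) and B3galt5 (0.93) for Per1, Nav2 (0.96) and Ctnnb1 (0.90) for Nr1d2, and Ppard (0.94) and Bcl2l1 (0.92) for Bhlhe41. For Arntl they were Sdha (0.94) and Ube2e3 (0.91), for Tef Mtdh (0.86) and Hvcn1 (0.86), and for Dbp Pls3 (0.85) and Mrps9 (0.84). None of these 12 genes is another member. They are the highest correlations over all genes tested and are given as a description, over libraries that share preparation and batch.

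Of 26 further genes of the clock, 17 were tested, among them Clock, Per3, Cry1, Cry2, Rora, Nfil3 and the kinases Csnk1d, Csnk1e and Gsk3b. None was called between preparations, with 11 of 102 tests at an unadjusted p under 0.05 in edgeR, beside the 4.72% to 10.4% of all genes, and 7 in DESeq2. The genes named next were singled out after their values were seen. The smallest adjusted p was that of Fbxw11, a ubiquitin ligase subunit, in ENZ-NONE against DNC-INHIB, at a log2 fold change of 0.51 (SE 0.14, edgeR adjusted p = 0.136). Nfil3, the repressor that competes with Dbp and Tef at D-boxes, had the largest fold change of these tests. It measured 8.73, 10.2 and 4.97 CPM in DNC-NONE replicates 1 to 3, 14.4, 12.8 and 10.9 in DNC-INHIB replicates 4 to 6, 6.94, 12.4 and 14.3 in ENZ-NONE replicates 4 to 6, and 6.29, 4.93 and 5.92 in ENZ-INHIB replicates 1 to 3. All 3 ENZ-INHIB libraries lay below all 3 DNC-INHIB libraries. The difference was -1.14 (SE 0.31, edgeR adjusted p = 0.186), and the fit without the filter on low counts called it (adjusted p = 0.0197). For Nfil3, the log2 difference of ENZ-NONE from ENZ-INHIB minus that of DNC-NONE from DNC-INHIB was 1.67 (SE 0.44, edgeR adjusted p = 0.475). The same unfiltered edgeR fit also called this interaction (adjusted p = 0.0232). That fit gave almost no weight to the spread of a single gene between mice. Between batches, Gsk3b, a kinase that phosphorylates clock proteins, stood lower in batch 2, by a log2 fold change of -0.28 (SE 0.06, edgeR adjusted p = 0.0192), under the fold threshold.

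Within ENZ-NONE, the summed level of Tef was lower in the cells that carried Fos and Dusp1, both early-response genes, than in the others, and replicate 6 was the library whose intervals did not overlap. There were 93, 69 and 419 cells with at least 1 UMI of each in ENZ-NONE replicates 4, 5 and 6, and at most 4 in any other library. In CPM of those cells, here without TMM scaling, Tef was at 13.4, 40.2 and 8.51 in these replicates, against 41.4, 45.9 and 30.1 in the other cells of the same libraries. The 95% Poisson intervals did not overlap in replicate 6 (3.12 to 18.5 against 23.0 to 38.7), and they overlapped in replicate 4 (1.62 to 48.2 against 33.0 to 51.3, from 2 UMIs) and in replicate 5 (10.9 to 103 against 35.5 to 58.4, from 4 UMIs). Summed over the 3 libraries, Tef was at 12.6 in the 581 cells (12 UMIs, 95% Poisson interval 6.49 to 22.0) and at 38.4 in the 3856 other cells (211 UMIs, 33.4 to 44.0), a ratio of 0.327. Over 8002 tested genes with at least 50 UMIs in the other cells, the median ratio was 0.925, 0.525% of genes had a ratio as low as that of Tef, and 23.6% were lower in all 3 libraries. These genes were not matched to Tef in counts, and Tef had the lowest ratio of the 9 members. The share of genes at or under the member's ratio was 20% for Nr1d2, 42.4% for Dbp and 65.5% for Bhlhe41. It was 97.2% for Arntl and 98.4% for Per1, and 98.5% to 99.7% for the sparse Nr1d1, Per2 and Bhlhe40. Replicate 6 held 419 of the 581 cells and 6 of the 12 Tef UMIs, and without it Tef was at 24.1 against 43.3, a ratio of 0.556. Cells are not replicates and no test was run over the 3 mice. Free RNA in the droplets can also give a cell a UMI of Fos or Dusp1, and its part was not tested.

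Per1 went the other way in the sum, at 18.9 (18 UMIs, 11.2 to 29.8) in the cells with Fos and Dusp1 and 9.84 (54 UMIs, 7.39 to 12.8) in the others. Without replicate 6 the sums were 12.0 and 8.37. By replicate Per1 was at 0, 30.1 and 21.3 against 8.87, 7.65 and 12.3, so 1 of the 3 libraries did not share that direction, with intervals that overlapped in each and in the sum. Bhlhe41 was at 751 (697 to 808) against 742 (720 to 765). Dbp was at 17.8 against 20.0, Nr1d2 at 25.1 against 33.2 and Arntl at 12.6 against 7.65, all with overlapping intervals. Without replicate 6, Dbp was at 8.02 against 22.2 and Arntl at 8.02 against 8.66, from 2 UMIs each in the cells with Fos and Dusp1, and without replicate 4 Dbp was at 21.1 against 16.8, so neither gene kept a direction. Bhlhe40, from 5 UMIs in each class, was at 5.24 (1.70 to 12.2) against 0.911 (0.296 to 2.13), and Nr1d1 and Per2 had 2 UMIs each in the cells with Fos and Dusp1. Those cells had somewhat more UMIs, with medians of 1484, 1344 and 1582 per cell against 1311, 1297 and 1457.

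**Figure D4:**
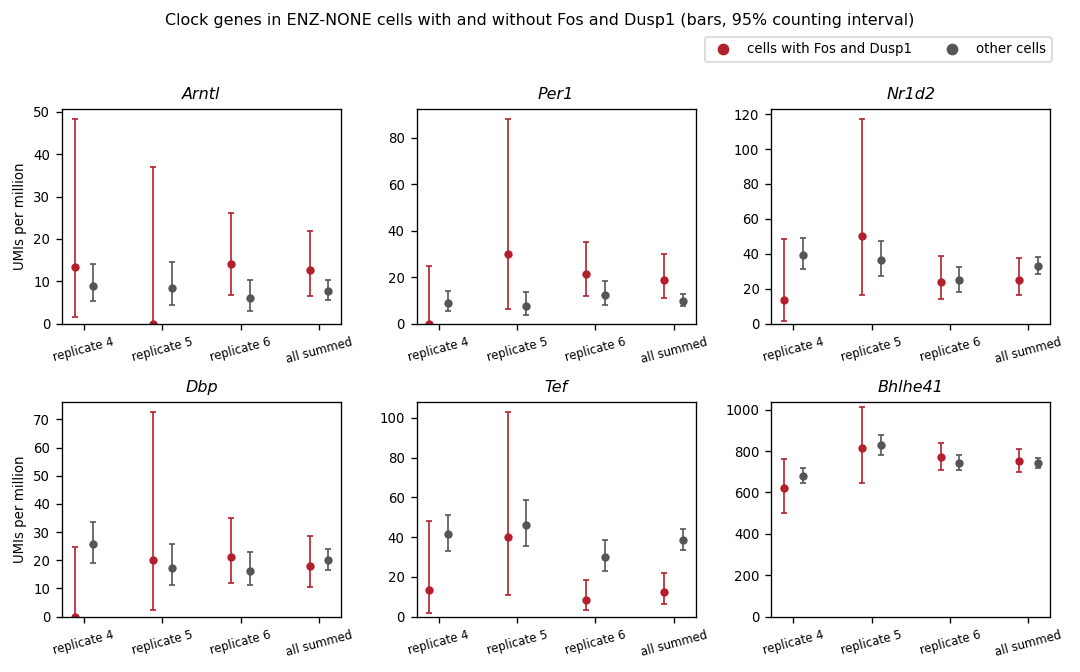
Level of the 6 tested clock genes (y axis, CPM without TMM scaling, starting at 0) in ENZ-NONE cells with both Fos and Dusp1 (red) and in the other cells of the same library (grey), for each of the 3 mice and their sum on the x axis. Bars are 95% Poisson intervals of the counts. In the sum, Tef was at 12.6 against 38.4 and Bhlhe41 at 751 against 742.

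The sort also took border macrophages, and Bhlhe41 was lower in the cells with their markers. Cells with at least 3 of 9 border macrophage genes (Mrc1, Pf4 and Cbr2 among them) numbered 183, of which 42 had exactly 3 such genes, and 127 further cells had 2. The median cell among the 183 had 2 UMIs of Mrc1 and 0 of the microglial genes Tmem119 and P2ry12, against 0, 5 and 10 in the other cells. Bhlhe41 was at 232 CPM in them, again without TMM scaling (69 UMIs, 95% Poisson interval 180 to 293) and at 637 in the others (627 to 646), and was lower in 12 of 12 libraries. The ratio was 0.364, the median ratio over 9874 genes was 0.777, 15.9% of genes had a ratio as low and 10.6% were lower in every library. Tef and Nr1d2 had 3 UMIs each in these cells, at 10.1 (2.08 to 29.4) against 36.1 and 32.1, and Per1, Dbp and Arntl had 4 to 6 UMIs each, with intervals that held the level of the other cells. The border macrophage markers summed to at most 514 CPM in a library, and without these cells the Bhlhe41 batch difference was -0.34.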

How the data were processed

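Live CD45+ and CD11b+ cells of 12 mice were profiled with the 10X Genomics 3' kit, version 2, as 1 library per mouse. The authors deposited UMI counts per gene and cell, not normalized, as raw matrices of barcodes called as cells. The submitters' processing notes name bcl2fastq, Cell Ranger 3.0.0, Seurat and the builds GRCm38 and mm10. Collapsing reads to UMIs removes PCR copies. Poisson intervals cover counting error only, while the edgeR intervals of log2 fold changes also include variation between libraries.

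Cells were kept with at least 500 genes, 1000 UMIs and at most 10% mitochondrial UMIs. No doublet caller was run, and leaving out the 2% of cells with most UMIs per library was an alternative. Counts were summed per library and tested with edgeR 4.0.16 (glmQLFit and glmQLFTest, R 4.3.3) in 1 fit of all 12 libraries by group, after TMM scaling and filterByExpr with a minimum count of 10, which left 9884 genes. The batch comparison added batch as a term. The Benjamini-Hochberg adjustment ran over all genes tested, and thresholds were 0.05 and 0.58 (log2). Standard errors are Wald errors from the fitted means and quasi-dispersions. Correlations used log2 (CPM + 1) and exact permutation within groups. The code was tested on simulated data. Libraries of 1 group differed by 1.59 to 6.36 in chi-square per gene, so none was counted as a repeat. Each library is 1 animal, so p-values measure the spread between mice, except in the edgeR fit without the low-count filter. There the intervals were as narrow as with unlimited degrees of freedom, so a gene's own spread carried almost no weight. The SE of the Bhlhe41 batch difference was 0.056 there, against 0.092 with the filter.

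Alternatives were DESeq2 1.42.0, its size factors, no low-count filter, all deposited barcodes, thinning to 1062871 UMIs per library, leaving out border macrophage marker cells, batch as a covariate, only the groups compared, a replicate block and each library left out in turn. The 9 members were named whatever their values, with the 2 genes most like each member that had a mean of at least 10 UMIs per library, and Fos, Dusp1, Thra and microglial markers where a result turned on them. Other listed clock genes were to be named only if called or highest of their role; the names that open their paragraph say what the list holds, and Fbxw11, Nfil3 and Gsk3b were chosen after their values were seen. The members, lists, motifs and tests were chosen with earlier results of these data known. Positions came from GENCODE M21 and promoters from RefSeq.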

Additional observations from a re-analysis of the deposited data

Results flagged for a closer look

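Within each batch of 6 libraries, preparations mixed, the highest and the lowest library of each tested clock gene was compared with its nearest neighbour by Dixon's gap over range, whose 95% critical value for 6 libraries is 0.625. Of 12 such sets, 3 had a library beyond it, where chance gives about 1 in 20. The groups of 3 mice were too small for this comparison.

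Arntl was at 23.1 CPM in DNC-NONE replicate 2, far above the other libraries of batch 1 (gap over range 0.663). Bhlhe41 was at 790 CPM in ENZ-NONE replicate 6, far above the rest of batch 2 (0.664). Per1 was at 15.5 CPM in DNC-NONE replicate 1, far above the rest of batch 1 (0.648). Since the sets mix preparations, a difference between preparations can also set a library apart.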

How the results depend on the processing

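No tested member was called under any of the 22 alternative settings. Between ENZ-NONE and DNC-NONE 3 member differences changed sign. Per1 (-0.01) was at 0.0086 with DESeq2, 0.00050 without the low-count filter, 0.26 with all deposited barcodes, 0.041 with thinned sums, and -0.39 (without ENZ-NONE replicate 6) to 0.44 (without DNC-NONE replicate 1) with 1 library left out. Tef (0.06) was at -0.071 with all deposited barcodes and -0.086 (without ENZ-NONE replicate 5) to 0.29 with 1 library left out, and Dbp (0.23) at -0.030 (without DNC-NONE replicate 3) to 0.56. Per1 between batches (0.15) was at -0.14 (without ENZ-NONE replicate 6) to 0.35 with 1 library left out, and the other batch, inhibitor and preparation differences recomputed kept their sign. Leaving out 1 library at a time moved Arntl in ENZ-NONE against DNC-NONE between -0.82 and -0.20 (without DNC-NONE replicate 2), Per1 in ENZ-NONE against ENZ-INHIB between 0.33 (without ENZ-NONE replicate 6) and 0.88, Per1 in ENZ-INHIB against DNC-NONE between -0.88 and -0.26 (without DNC-NONE replicate 1), Bhlhe41 in ENZ-NONE against ENZ-INHIB between 0.22 (without ENZ-INHIB replicate 2) and 0.62 (without ENZ-INHIB replicate 1), Dbp in ENZ-INHIB against DNC-INHIB between 0.19 (without DNC-INHIB replicate 4) and 0.47, Tef in the same comparison between 0.24 (without DNC-INHIB replicate 4) and 0.53, the inhibitor interaction of Per1 between 0.28 (without ENZ-NONE replicate 6) and 1.11 (without DNC-NONE replicate 1) and that of Arntl between -0.66 (without DNC-NONE replicate 3) and -0.04 (without DNC-NONE replicate 2), and Bhlhe41 between batches between -0.48 and -0.24. The adjusted p of the Bhlhe41 batch difference passed 0.05 without the 2% of cells with most UMIs (0.0456), without the low-count filter (2.7e-07), without ENZ-NONE replicate 4 (0.0133) and without ENZ-NONE replicate 6 (0.0022), always under the fold threshold. The unfiltered value does not measure the spread of Bhlhe41 between mice. With any other library left out, the edgeR adjusted p was 0.0617 (without DNC-NONE replicate 1) to 0.303 (without ENZ-INHIB replicate 1). Depth limits Per2, Nr1d1 and Bhlhe40 most, with at most 10 UMIs in a library.

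The number of genes called over the whole table moved more, and the cause was not tested. Without the low-count filter it was 203 for ENZ-NONE against DNC-NONE (61 as reported), 209 for ENZ-NONE against DNC-INHIB (78), 142 for ENZ-NONE against ENZ-INHIB (37), 86 for DNC-NONE against DNC-INHIB (0), 98 for ENZ-INHIB against DNC-INHIB (15), 215 for ENZ-INHIB against DNC-NONE (10), 73 for the difference of inhibitor effects (17) and 79 between batches (25). DESeq2 called 1 gene for DNC-NONE against DNC-INHIB, 9 for ENZ-INHIB against DNC-INHIB, 19 for ENZ-INHIB against DNC-NONE and 0 between batches, where 759 genes had an unadjusted p under 0.05. With only the 2 groups compared, the counts were 38 for ENZ-NONE against DNC-NONE, 3 for DNC-NONE against DNC-INHIB, 32 for ENZ-INHIB against DNC-INHIB and 33 for ENZ-INHIB against DNC-NONE. Library sums thinned in 1 random draw gave 0 for ENZ-INHIB against DNC-INHIB with edgeR, with 612 genes at an unadjusted p under 0.05. Batch as a covariate gave 2 for DNC-NONE against DNC-INHIB and 24 for ENZ-INHIB against DNC-INHIB, and all deposited barcodes gave 19 for ENZ-INHIB against DNC-NONE. With 1 library left out, the counts ran from 40 to 90 for ENZ-NONE against DNC-NONE, 50 to 92 for ENZ-NONE against DNC-INHIB, 29 to 56 for ENZ-NONE against ENZ-INHIB, 0 to 1 for DNC-NONE against DNC-INHIB, 2 to 23 for ENZ-INHIB against DNC-INHIB, 0 to 61 for ENZ-INHIB against DNC-NONE, 6 to 19 for the difference of inhibitor effects and 14 to 41 between batches.

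The labels give the same replicate numbers to DNC-INHIB and ENZ-NONE and to DNC-NONE and ENZ-INHIB, without saying that a number is shared by anything. Deviations of same-numbered libraries from their group means correlated at -0.079 to 0.156 across genes, so the numbers were not taken to pair the mice. A replicate block gave 95 called genes for ENZ-NONE against DNC-INHIB and 70 for ENZ-INHIB against DNC-NONE, and called none of the 6 tested clock genes.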
